A study of Homo sapiens with 8 samples.

Results

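The RNA of 10 factors that remove the 5′ cap from mRNA or degrade the uncapped body was followed in OVCAR3 cells, an established line from a human ovarian carcinoma. DCP2, the catalytic subunit of the decapping enzyme, stood at 94.0 ± 1.55 CPM (SD, n = 2) in cells given control siRNA and at 421 ± 14.2 CPM (SD, n = 2) in cells given siRNA against TARG1. CPM are exon counts per 1000000 counts after TMM normalization, which scales each library to a common size. DDX6, a helicase that joins decapping to translational repression, fell by 0.56 on the log2 scale in the same comparison, and XRN1, the exonuclease that follows decapping, differed by less than the spread between libraries. Between cells with wild-type and mutant RACK1, no factor passed the test. The 10 genes were DCP2, DCP1A, DCP1B, XRN1, EDC3, EDC4, LSM1, DDX6, PATL1 and DCPS. They were found by symbol among the 20165 rows of merged transcripts that were counted, each in 1 row of its own, and all 10 were among the 14024 rows tested. The list was chosen by the change of DCP2 between the siRNA groups, so that change is given as a description with no test, and counts in that comparison are over the other 9 genes.

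An mRNA is usually lost after its poly(A) tail is shortened. The LSM1-7 ring and PATL1 bind the shortened end, and DCP2 then hydrolyses the cap with the help of DCP1A or DCP1B, EDC3, EDC4 and DDX6. The exposed 5′ end is degraded by XRN1, while the cap left over from decay in the other direction is broken down by DCPS, the scavenger enzyme. Most of these proteins gather in P-bodies, cytoplasmic granules distinct from stress granules, with which they exchange components.

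The study compared 4 groups with 2 libraries each. The siControl and siTARG1 cells received 30 nM of control siRNA or of siRNA against OARD1, the gene of the ADP-ribosyl hydrolase TARG1, and were harvested after 48 h. The study's methods list 2 siRNAs for TARG1, and the sample labels do not say which was used. The other 2 groups, RACK1-WT and RACK1-Mut, were OVCAR3 lines that, under 1 µg/ml Dox for 48 h, knock down their own RACK1 and express HA-tagged RACK1 that is wild type or lacks its sites of mono-ADP-ribosylation. All groups come from the same parental line, and whether the RACK1 lines are single clones is not given in the sources used here. The study's methods describe its sequencing experiments as repeats on independent biological material, and p-values here measure the spread between such libraries.

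Exon counts ranged from 30989049 to 42668783 per library. OARD1 was at 48.5 and 52.0 CPM in siControl and at 3.11 and 3.98 CPM in siTARG1, and its RACK1-line libraries lay between 39.3 and 46.2 CPM. RACK1 lay between 4241 and 4664 CPM in the siRNA libraries, at 1762 and 1898 CPM in RACK1-WT and at 1397 and 1454 CPM in RACK1-Mut. Each of the 7 ovarian carcinoma markers examined (PAX8, MUC16, WT1, EPCAM, KRT7, KRT8 and KRT18) was at 15.4 CPM or more in every library, CD3E was at 0 in every library, and DCN and CDH5 did not exceed 0.14 CPM. Of the other blood cell and fibroblast genes examined, PTPRC did not exceed 0.80 CPM, CD68 lay between 2.80 and 6.31, COL1A1 between 4.81 and 7.47 and COL1A2 between 0.57 and 1.81. The summed level of the 7 carcinoma markers was 3709 and 3895 CPM in siControl, 2246 and 2347 in siTARG1 and between 3508 and 3607 in the RACK1 lines, so it moved with the siRNA groups. KRT8 was at 1195 and 1130 CPM in siControl against 554 and 544 in siTARG1, and KRT18 at 1323 and 1260 against 505 and 535. KRT7 was at 173 and 145 against 239 and 192, EPCAM at 399 and 425 against 400.1 and 474, and PAX8 at 289 and 307 against 292 and 265. MUC16 was at 492 and 413 CPM against 239 and 320, and WT1 at 24.6 and 28.5 against 15.4 and 16.4. The lower sum in siTARG1 lay mostly in KRT8 and KRT18 and was not shared by KRT7 or EPCAM. Its part in the differences below was not tested. The siTARG1 libraries differed from siControl at 46.6% of the rows tested (6537 of 14024, edgeR's quasi-likelihood test, adjusted p under 0.05 after Benjamini-Hochberg), with 23.5% higher and 23.1% lower. Those shares are the background for counts below that use this comparison with exon counts of all 8 libraries. The other comparisons have their own shares, given with them. In these bulk samples, fewer cells that hold an RNA and less of it per cell cannot be told apart.

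DCP2 (ENSG00000172795) is a gene of the plus strand of chromosome 5 (112312399 to 112357892, GRCh37). It was at 92.9 and 95.1 CPM in siControl, 411 and 431 CPM in siTARG1, 227 and 209 CPM in RACK1-WT and 237 and 236 CPM in RACK1-Mut. All 4 groups were apart, with the siControl libraries lowest, the siTARG1 libraries highest and both RACK1 lines between them. The log2 fold change of siTARG1 against siControl was 2.17 (standard error, SE, 0.07), a 4.49-fold difference, and it stayed between 2.02 and 2.22 over 18 other ways of counting and fitting. Among all 14024 rows tested, 96 had a larger log2 fold change, and among the 10879 with a mean log2 CPM above 2, 10 did. These ranks use the values that chose DCP2. The counts behind these levels ran from 2907 to 18034 per library.

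**Figure D1:**
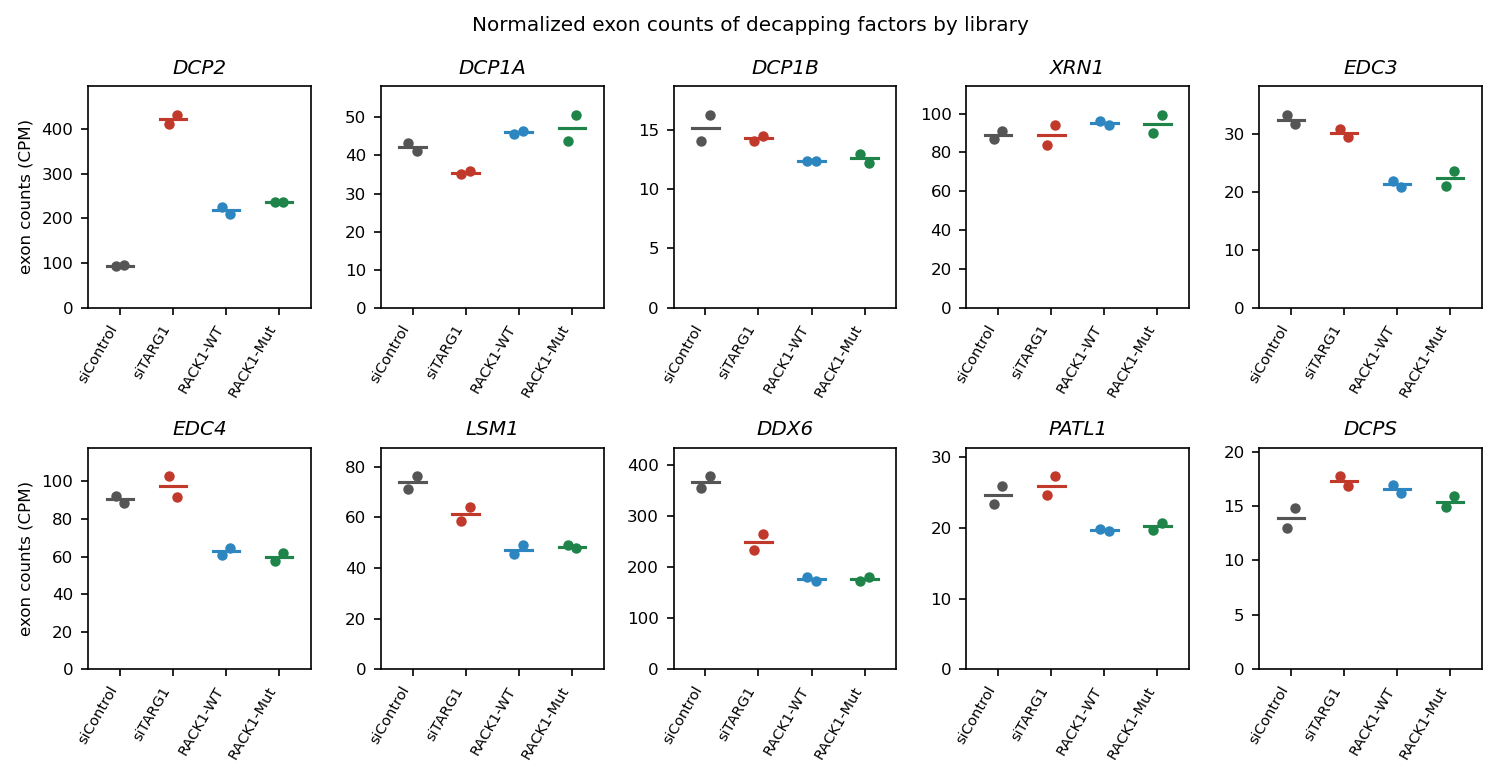
Exon counts in CPM (vertical axes, each from 0) of the 10 genes in the 8 libraries. Points are libraries and bars are group means. The siControl and siTARG1 libraries of DCP2 stand at 92.9 and 95.1 against 411 and 431 CPM, and those of DDX6 at 355 and 377 against 233 and 264 CPM.

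The siControl level of DCP2 was the lowest of the 4 groups, and RACK1-WT and RACK1-Mut were at 232% and 252% of it. These lines differ from the siRNA cells in experiment, transfection, Dox, viral transduction with drug selection, and the replacement of their own RACK1. For every gene here, the difference between experiments cannot be told apart from those conditions and was not tested. Against RACK1-WT, RACK1-Mut was 0.12 higher on the log2 scale (SE 0.07), with an edgeR adjusted p of 1.0 and an unadjusted p of 0.096. The RACK1-Mut libraries both lay above the RACK1-WT libraries. Leaving out 1 library at a time moved this value between 0.06 and 0.18.

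The excess of DCP2 RNA in siTARG1 was seen in both regions of the mRNA. Coding and 3′ UTR counts make up most of the exon counts that chose DCP2, so this is a description and no further support. Per kb of coding sequence, DCP2 was at 19.4 and 19.8 CPM in siControl, 76.6 and 79.9 in siTARG1, 37.1 and 39.6 in RACK1-WT and 41.0 and 40.7 in RACK1-Mut. Per kb of 3′ UTR it was at 9.01 and 9.23 CPM in siControl and 41.6 and 43.8 in siTARG1, and in the RACK1 lines the 4 libraries lay between 21.0 and 24.5. The group means differed 3.99-fold over the coding sequence and 4.68-fold over the 3′ UTR. The change of the 3′ UTR exceeded that of the coding sequence by 0.22 on the log2 scale (SE 0.09), a value that shares its libraries with the choice of DCP2 and was not tested. Exons of DCP2 overlap those of MCC, on the opposite strand, over 90 bases. The libraries were strand-specific, and whether the counting used strand is not given in the sources used here.

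**Figure D2:**
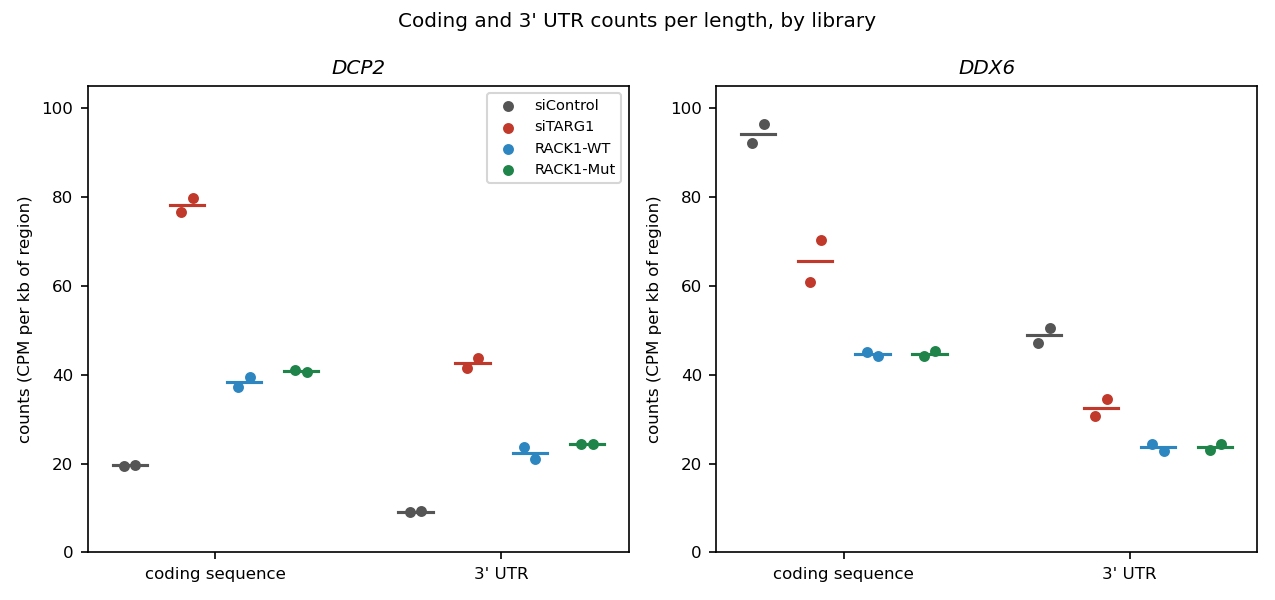
Counts in CPM per kb of coding sequence and of 3′ UTR (vertical axes) for DCP2 and DDX6, with points for libraries and bars for group means. The order of the 4 groups is the same in both regions of DCP2, and in DDX6 the siControl libraries stand above the others in both.

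The 3′ UTR of DCP2 is long, with 8711 bases in the Gencode transcript ENST00000389063 and 7486 bases counted by the authors. It was searched for 4 words of 7 bases that an earlier scan of these same libraries had tied to lower (TGAACAT and also GAACATA) or higher (GAATATA and also TGAATAT) RNA in siTARG1, so a match here is no independent evidence. Among the 357 of a length close to that of DCP2, 3′ UTRs with TGAATAT had a median log2 fold change of 0.00 and those without it 0.06, which is not the direction of that scan, and with GAATATA the medians were 0.03 and -0.00. For the words tied to lower RNA, the medians kept the direction of the scan. They were -0.11 with TGAACAT and 0.09 without it, and -0.16 with GAACATA and 0.09 without it. These differences were not tested. Only the sense strand was searched, and words that overlap were counted separately. DCP2 held TGAATAT 4 times, GAATATA 3 times, TGAACAT 1 time and GAACATA 0 times. The TGAACAT site is at base 7579, where the authors counted 7486 bases. TGAATAT was in 19.9% and GAATATA in 15.2% of the 13656 3′ UTRs searched (TGAACAT in 15.1% and GAACATA in 9.49%), and in 65.0% and 53.2% of the 357 between 0.8 and 1.25 times the length of that of DCP2. Of these 357, 15 (4.20%) held at least 7 matches to this pair of words together, as DCP2 did. Taken singly, 6.16% held TGAATAT at least 4 times and 7.56% held GAATATA at least 3 times. The 7 sites in DCP2 that match the words of the second pair are shown in stretches of 30 bases, since few 3′ UTRs of that length held as many, and capitals mark the word. They lie on the plus strand of GRCh37 at chr5:112349737-112349766, chr5:112351589-112351618, chr5:112352125-112352154, chr5:112353507-112353536, chr5:112354294-112354323, chr5:112355012-112355041 and chr5:112357814-112357843, in this order, and the last lies beyond the counted length of the 3′ UTR.
DCP2, base 567 of the 3′ UTR: agcagcttctgGAATATAatgtgcatgtcc
DCP2, base 2419: aaggagtatgcTGAATATgcaatcatttac
DCP2, base 2955: gttctgagcttTGAATATcgttatttttct
DCP2, base 4337: tcatatatataTGAATATctatatctatat
DCP2, base 5124: gacaatggcccTGAATATgtgttttctgct
DCP2, base 5842: tagtgcttttgGAATATAtaacagtagact
DCP2, base 8644: atatttattcaGAATATAagaatgtttgta

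The pentamer ATTTA, the core of AU-rich elements that recruit decay factors, occurred 28 times in the 3′ UTR of DCP2, and 70 of the 357 3′ UTRs of similar length (19.6%) held it at least as often. It was in 73.0% of all 3′ UTRs searched. The match is a description of the letters, and no site of binding was measured.

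The activators of DCP2 that belong to the DCP1 family did not share its pattern. DCP1A (ENSG00000272886, chromosome 3, 53317449 to 53381613, minus strand) is the EVH1-domain cofactor that holds DCP2 in its active form. It was at 43.3 and 41.3 CPM in siControl, 35.02 and 35.98 in siTARG1, 45.7 and 46.5 in RACK1-WT and 43.9 and 50.6 in RACK1-Mut. The siTARG1 libraries were the lowest of the 8, and DCP1A fell by 0.25 in log2 units (SE 0.08, edgeR adjusted p = 0.021). The call was lost without siControl replicate 1 (adjusted p = 0.14), without siTARG1 replicate 1 (0.062), and with counts of the coding sequence (0.084) or the 3′ UTR (0.091) alone, where the log2 fold change lay between -0.27 and -0.21.

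DCP1B (ENSG00000151065, chromosome 12, 2055219 to 2113701, minus strand), the paralog of DCP1A, was the least abundant of the pair. Its libraries were at 14.0 and 16.3 CPM in siControl, 14.0 and 14.5 in siTARG1, 12.4 and 12.4 in RACK1-WT and 13.0 and 12.2 in RACK1-Mut. The siRNA groups overlapped, and the log2 fold change was -0.08 (SE 0.10, edgeR adjusted p = 0.54).

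The balance between the catalytic subunit and its cofactors differed accordingly. Per kb of coding sequence, the ratio of DCP2 to DCP1A was 1.83 and 1.93 in siControl, 9.46 and 8.42 in siTARG1, 3.601 and 3.819 in RACK1-WT and 4.26 and 3.67 in RACK1-Mut. The ratio of DCP2 to DCP1A and DCP1B together was 1.08 on average in siControl and 4.87 in siTARG1. These are ratios of RNA levels and use the values that chose DCP2.

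The enhancers EDC3 and EDC4 showed no change that passed the test between the siRNA groups. EDC3 (ENSG00000179151, chromosome 15, 74922899 to 74988633, minus strand) is a scaffold that binds DCP2 and DDX6. It was at 33.3 and 31.7 CPM in siControl and 31.0 and 29.4 in siTARG1, with a log2 fold change of -0.11 (SE 0.08, edgeR adjusted p = 0.33). Its exons share 701 bases with those of CLK3 on the opposite strand. EDC4 (ENSG00000038358, chromosome 16, 67906955 to 67918402, plus strand) is the large scaffold that brings DCP1 and DCP2 together in animal cells. It was at 92.3 and 88.5 CPM in siControl and 103 and 91.9 in siTARG1, groups that overlapped, with a log2 fold change of 0.11 (SE 0.08, edgeR adjusted p = 0.28). Annotated exons of EDC4 share 1307 bases with a long noncoding RNA (ENSG00000263126) and 84 with a microRNA, both on the same strand. The part of these RNAs in the EDC4 counts was not tested. In the RACK1 lines EDC3 lay between 20.9 and 23.7 CPM and EDC4 between 57.7 and 64.3 CPM, all below the siRNA libraries.

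DDX6 (ENSG00000110367, chromosome 11, 118618472 to 118661873, minus strand) had the largest change of the 9 genes tested. It is a DEAD-box helicase of P-bodies that binds EDC3, PATL1, LSM14 proteins and the CCR4-NOT complex. DDX6 was at 355 and 377 CPM in siControl, 233 and 264 in siTARG1, 181 and 172 in RACK1-WT and 173 and 181 in RACK1-Mut. Both siTARG1 libraries lay below both siControl libraries, and all 4 RACK1-line libraries lay lower still. It fell to 68.0% of the siControl level, a log2 fold change of -0.56 (SE 0.07, edgeR adjusted p = 3.3e-05). The call held under all 18 alternatives, with log2 fold changes from -0.66 to -0.47.

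Over the coding sequence of DDX6, the siControl libraries were at 92.1 and 96.4 CPM per kb and the siTARG1 libraries at 60.8 and 70.3. Over the 3′ UTR they were at 47.3 and 50.6 against 30.8 and 34.4 CPM per kb. The levels over each region were at 69.5% and 66.7% of siControl, and the changes of the regions differed by -0.07 on the log2 scale (SE 0.08, edgeR adjusted p = 1.0). DDX6 has annotated copies elsewhere in the genome (DDX6P1 and DDX6P2), and the alignment kept reads that match several places, so reads may be shared with them. Per kb of coding sequence, DDX6 was 4.81 times as abundant as DCP2 on average in siControl and 0.837 times in siTARG1, a reversal of their order that again uses the values that chose DCP2.

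The 3′ UTR of DDX6, of 4342 bases in ENST00000534980, held 1 match to a word of the first pair and 1 to a word of the second, 43 bases apart. TGAACAT was in 31.5% and GAATATA in 32.8% of the 1437 3′ UTRs of similar length. Both sites are shown for comparison with those of DCP2, since they carry a word from each pair close to the stop codon. They lie on the minus strand at chr11:118622621-118622650 and chr11:118622578-118622607, and capitals mark the word.
DDX6, base 175 of the 3′ UTR: ctgaaaagaagGAATATAccttttttgttc
DDX6, base 218: tgtgtgctgacTGAACATtagttgcactaa

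EDC3 held GAACATA once, as 9.08% of 3′ UTRs of its length did. The 3′ UTR of DCPS held GAATATA and TGAATAT in overlapping letters, but at bases 4053 and 4054 of an annotated 4392, where the authors counted 136 bases. DCP1A, DCP1B, XRN1, EDC4, LSM1 and PATL1 held none of the 4 words.

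LSM1 and PATL1 act at the shortened tail. LSM1 (ENSG00000175324, chromosome 8, 38020853 to 38034248, minus strand) defines the cytoplasmic LSM1-7 ring. It was at 71.4 and 76.2 CPM in siControl, 58.7 and 64.2 in siTARG1, 45.5 and 49.0 in RACK1-WT and 48.9 and 48.1 in RACK1-Mut. The siRNA groups were apart, and LSM1 fell by 0.26 in log2 units (SE 0.08, edgeR adjusted p = 0.0104). The call was lost without siControl replicate 2 (adjusted p = 0.0998), without siTARG1 replicate 1 (0.067) and over the 3′ UTR alone (0.051). On the opposite strand, its exons overlap those of BAG4 over 198 bases and those of a long noncoding RNA (ENSG00000253356) over 438. LSM1 has annotated copies elsewhere (LSM1P1 and LSM1P2).

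PATL1 (ENSG00000166889, chromosome 11, 59404189 to 59436510, minus strand), which bridges the LSM1-7 ring and DCP2, was at 23.3 and 26.0 CPM in siControl and 24.6 and 27.3 in siTARG1. The groups overlapped, with a log2 fold change of 0.08 (SE 0.09, edgeR adjusted p = 0.52). The RACK1-line libraries lay between 19.6 and 20.7 CPM.

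Of the nucleases downstream, XRN1 (ENSG00000114127, chromosome 3, 142025449 to 142166904, minus strand) was the steadiest of the 10 genes across groups. Its libraries were at 87.0 and 91.2 CPM in siControl, 84.0 and 94.1 in siTARG1, 96.1 and 94.0 in RACK1-WT and 90.0 and 99.3 in RACK1-Mut. Neighbouring groups in the order of their means all overlapped, and the siRNA groups had a log2 fold change of 0.00 (SE 0.08, edgeR adjusted p = 1.0).

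DCPS (ENSG00000110063, chromosome 11, 126173955 to 126219900, plus strand) was the only one of the 9 genes tested that was called higher. It was at 13.0 and 14.8 CPM in siControl, 17.7 and 16.9 in siTARG1, 16.9 and 16.2 in RACK1-WT and 14.9 and 15.9 in RACK1-Mut. The siControl libraries were the lowest of the 8, and the log2 fold change of siTARG1 was 0.32 (SE 0.10, edgeR adjusted p = 0.014). The call was lost without siControl replicate 1 (adjusted p = 0.14), without siTARG1 replicate 1 (0.053) and over the short 3′ UTR alone (0.59).

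In all, 4 of the 9 genes tested passed the threshold between siTARG1 and siControl, 1 higher and 3 lower, against 46.6% of all rows. The count is near the background and says nothing particular to decapping factors. With siTARG1 replicate 1 left out DDX6 alone was called, and with siControl replicate 1 left out 2 genes were.

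**Figure D3:**
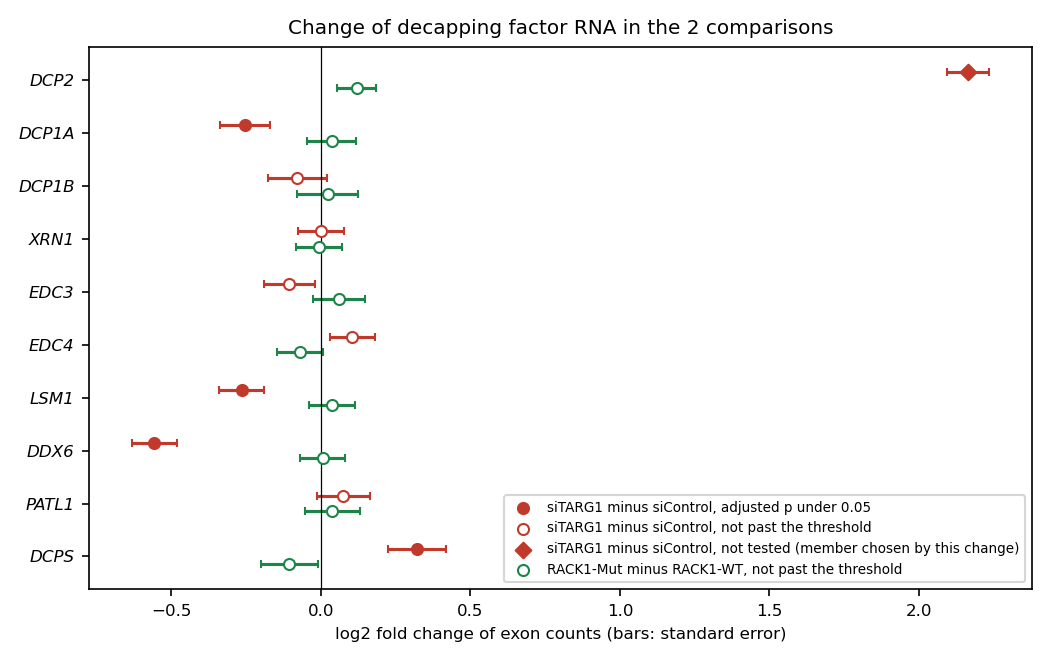
Log2 fold changes of exon counts (horizontal axis) with standard errors for the 10 genes, siTARG1 against siControl and RACK1-Mut against RACK1-WT. Filled circles passed an adjusted p of 0.05, open circles did not, and the diamond is DCP2, not tested there. DCP2 lies at 2.17 and DDX6 at -0.56 between the siRNA groups, while the RACK1 comparison stays between -0.11 and 0.12.

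Between RACK1-Mut and RACK1-WT, none of the 10 genes passed the threshold with edgeR's quasi-likelihood test or with DESeq2, and none had an unadjusted p under 0.05 in edgeR. In that comparison 0.00713% of all rows (1 of 14024) were called. The log2 fold changes ran from -0.11 for DCPS to 0.12 for DCP2, with standard errors from 0.07 to 0.10. DCP2 and DCPS were the genes whose RACK1 libraries did not overlap. In DCP1B, EDC3, EDC4, LSM1, DDX6 and PATL1, both RACK1 lines lay below both siRNA groups and overlapped each other. The share of all rows with either pattern was not counted, so neither is read as particular to these genes.

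The difference between the siRNA effect and the RACK1 effect was tested in the same fit, where 32.4% of all rows were called. DDX6 (log2 difference -0.56, SE 0.11, adjusted p = 0.001), DCPS (0.43, 0.14, 0.027) and LSM1 (-0.30, 0.11, 0.046) passed with edgeR's quasi-likelihood test, which is 3 of the 9 genes tested. With DESeq2, DDX6 alone was called, and LSM1 and DCPS had adjusted p-values of 0.066 and 0.051. For DCP2 the difference was 2.05, given without a test.

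The change of the 3′ UTR was also set against that of the coding sequence for every gene, a comparison in which 0.0581% of 12047 rows were called between the siRNA groups and 0.0% between the RACK1 lines. None of the 9 genes passed between siTARG1 and siControl with edgeR's quasi-likelihood test, with unadjusted p-values of 0.41 and above. None of the 10 passed between the RACK1 lines, where the unadjusted p-values were 0.25 and above. DESeq2 was not run on this comparison. The largest difference between the regions among the 9 genes was that of EDC4, at 0.19 on the log2 scale with a standard error of 0.23, and its counted 3′ UTR has 355 bases.

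Levels between genes were compared per kb of coding sequence. In siControl, LSM1 (99.8 ± 12.3 CPM per kb, SD, n = 2) and DDX6 (94.3 ± 3.07) stood highest and did not differ beyond their spread, and EDC4 (20.3 ± 0.312) and DCP2 (19.6 ± 0.239) followed. DCPS, XRN1, EDC3 and DCP1A had means between 10.4 and 12.3 CPM per kb, and DCP1B (7.66 ± 0.745) and PATL1 (7.26 ± 0.275) were lowest. In siTARG1, DCP2 (78.2 ± 2.34 CPM per kb, SD, n = 2) stood beside LSM1 (82.0 ± 9.69) and above DDX6 (65.5 ± 6.71). In RACK1-WT, LSM1 was at 56.8, DDX6 at 44.7 and DCP2 at 38.4 CPM per kb on average.

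The 5 rows most like DCP2 across the 8 libraries, by Pearson correlation of log2 CPM among the 10879 rows with a mean above 2, were VTI1A (r = 0.997), SS18L1 (0.996), DCAF16 (0.995), INIP (0.994) and AREL1 (0.994). Being chosen by this correlation, all had their lowest mean in siControl and their highest in siTARG1, with the RACK1 lines between. Correlation does not weigh the size of a change. Their log2 fold changes in siTARG1 ran from 0.58 for SS18L1 to 1.47 for INIP, beside 2.17 for DCP2. VTI1A was at 15.9, 34.0, 25.1 and 25.1 CPM in siControl, siTARG1, RACK1-WT and RACK1-Mut, and INIP was at 19.4, 53.9, 35.8 and 38.8. The correlations are over libraries that fall into 4 groups, so they mainly describe the order and spacing of those groups.

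Partners of the decapping complex were examined as the first of 5 lists of decay genes. Of 14 partners tested, 3 were called higher and 3 lower between the siRNA groups, which is 42.9% of them beside 46.6% of all rows. Their median log2 fold change was 0.04, beside 0.01 for all rows. LSM6, a subunit of the LSM1-7 ring, rose from 9.20 and 13.8 CPM to 16.6 and 23.9 (log2 fold change 0.83, SE 0.18, edgeR adjusted p = 0.0016). EIF4ENIF1, the eIF4E transporter that ties DDX6 to the cap, rose from 20.5 and 21.0 CPM to 27.7 and 28.2 (0.43, 0.08, 7.0e-04). LSM14B, a translational repressor that binds DDX6, fell from 86.8 and 88.9 CPM to 49.4 and 53.5 (-0.77, 0.07, 1.1e-06), and PNRC1, a cofactor that binds the decapping enzyme, fell from 55.0 and 67.9 CPM to 45.1 and 48.5 (-0.39, 0.09, 0.0031). PNRC1 lost the call without siControl replicate 2. LSM4 and LSM14A also passed, at -0.33 and 0.33. LSM14A lost the call without siControl replicate 1, without siTARG1 replicate 2 and with 3′ UTR counts alone, with log2 fold changes from 0.15 to 0.49 and edgeR adjusted p-values of up to 0.33 over its alternatives.

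Of 18 genes of deadenylation, the step that removes the poly(A) tail, 5 were called higher and 5 lower. That is 55.6% of them beside 46.6% of all rows, and their median was -0.05. BTG2, an antiproliferative protein that recruits the CCR4-NOT deadenylase, rose from 7.42 and 8.76 CPM to 14.2 and 13.9 (0.80, 0.11, 5.7e-05). CNOT1, the scaffold of that complex, rose from 174 and 171 CPM to 266 and 262 (0.61, 0.07, 9.7e-06). CNOT6, one of its catalytic subunits, fell from 53.0 and 58.9 CPM to 25.03 and 31.9 (-0.97, 0.10, 3.3e-06), and TOB2, a relative of BTG2, fell from 86.6 and 85.6 CPM to 51.7 and 54.0 (-0.70, 0.07, 1.8e-06). Parentheses hold the log2 fold change, its SE and the edgeR adjusted p, here and in the paragraph that follows.

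Of 17 genes of the exosome and its cofactors, which degrade RNA from the 3′ end, 2 were called higher and 7 lower, with a median of -0.07. That is 52.9% of them, beside 46.6% of all rows, 23.5% higher and 23.1% lower. The split of this small list between the directions was not tested. DIS3L, the cytoplasmic exosome nuclease, rose from 23.3 and 23.6 CPM to 42.4 and 43.0 (0.86, 0.08, 6.1e-07), and EXOSC6, a ring subunit, rose from 38.5 and 40.1 CPM to 46.9 and 51.7 (0.33, 0.08, 0.0033) but was at -0.23 when coding counts alone were used. WDR61 fell from 53.4 and 52.5 CPM to 31.6 and 33.3 (-0.71, 0.07, 2.9e-06), and SKIV2L fell from 81.1 and 74.1 CPM to 55.1 and 49.7 (-0.57, 0.08, 4.7e-05). Both belong to the Ski complex, which feeds mRNA to the exosome. In the next list, nonsense-mediated decay, the share called was 30%. Of 10 genes of nonsense-mediated decay, UPF3A rose by 0.62 (SE 0.10, edgeR adjusted p = 1.3e-04), while UPF1, the helicase at its centre, fell by 0.35 (0.10, 0.01) and SMG5 by 0.26 (0.08, 0.019), and both of these calls were lost without siControl replicate 1 or siTARG1 replicate 2. Of 11 genes listed as regulators of decay that bind 3′ UTRs, 18.2% were called, beside 46.6% of all rows, and none was called higher. RC3H2, among those called lower, fell by 0.34 (SE 0.07, edgeR adjusted p = 0.0018).

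IRF7 and EXOSC4 have been reported as mRNAs that DCP2 decaps. EXOSC4, also an exosome subunit, fell from 42.0 and 44.1 CPM to 35.3 and 33.2 in siTARG1 (log2 fold change -0.33, SE 0.08, edgeR adjusted p = 0.0041), and was at 39.3 and 43.8 CPM in RACK1-WT and 40.8 and 43.4 in RACK1-Mut. IRF7 was at 67.6 and 58.7 CPM in siControl, 64.04 and 54.0 in siTARG1, 26.5 and 29.4 in RACK1-WT and 20.6 and 22.3 in RACK1-Mut. Its siRNA groups overlapped (-0.10, SE 0.10, adjusted p = 0.43), and both RACK1-Mut libraries lay below both RACK1-WT libraries (-0.38, SE 0.10, adjusted p = 0.58 with edgeR's quasi-likelihood test).

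**Figure D4:**
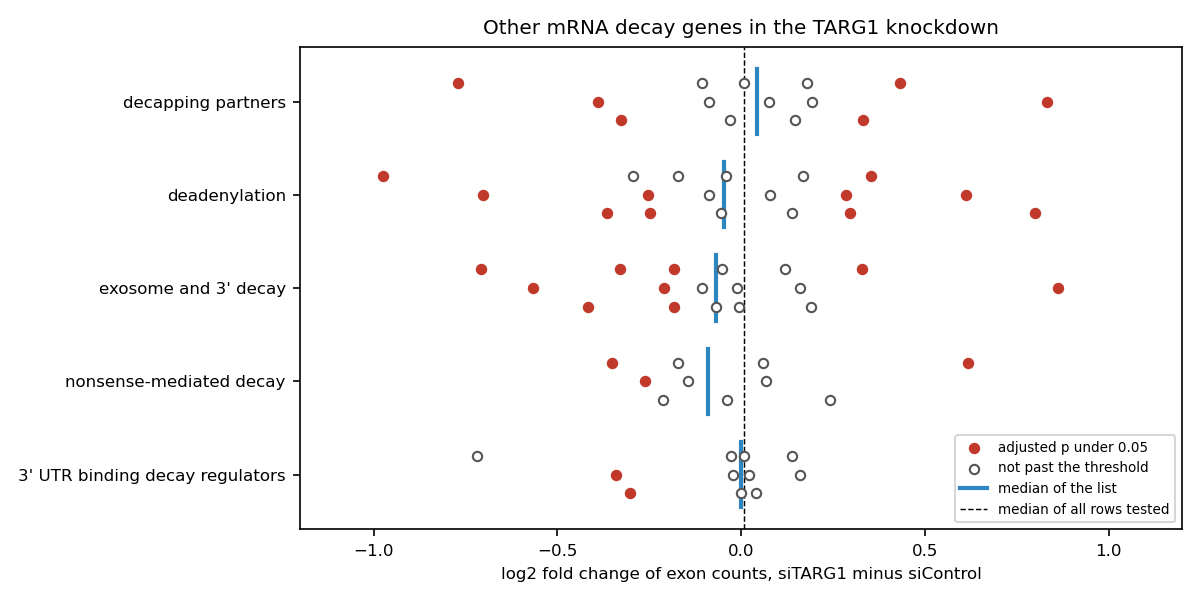
Log2 fold changes of exon counts, siTARG1 against siControl (horizontal axis), for the genes of 5 lists of mRNA decay factors. Filled points passed an adjusted p of 0.05, bars are list medians and the dashed line is the median of all rows. Each list has points on both sides of 0, and the medians stay between -0.09 and 0.04.

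Over the 71 decay genes of these lists, each counted once, 30 passed the threshold between the siRNA groups, 11 higher and 19 lower, which is 42.3% of them beside 46.6% of all rows. Between the RACK1 lines none of the 71 passed with edgeR's quasi-likelihood test or with DESeq2, and 4 had an unadjusted p under 0.05 in edgeR. With the 4 RACK1 libraries fitted alone, IRF7 was called (adjusted p = 0.034). Of the genes named above, LSM14A, EIF4ENIF1, PNRC1, EXOSC4, UPF1, SMG5 and RC3H2 lost their calls between the siRNA groups with 3′ UTR counts alone.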

How the data were processed

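The deposited tables hold estimated counts per merged transcript row for all exons, the coding sequence and the UTRs of each RNA-seq library, with region lengths. The authors filtered reads with Bowtie 1.1.2, aligned the rest to a GRCh37 Gencode transcriptome with TopHat2 2.1.1, keeping up to 64 hits, and counted with Plastid. Their RPKM were not used. Gencode v44lift37 names matched 94.7% of 36595 transcript names. Counts were rounded and fitted with edgeR 4.0.16 (limma 3.58.1, R 4.3.3): TMM, filterByExpr, a mean per group over all 8 libraries, quasi-likelihood test, Benjamini-Hochberg adjustment over all rows tested, threshold 0.05. The SE of a log2 fold change is its size over the root of F. The 3′ UTR against coding test used both counts of each library in 1 fit. Scripts were tested on simulated data. DESeq2 1.42.0, other normalization and filters, region counts and omitted libraries were alternatives. Genes sharing a row with another gene were left out of lists. Named are all 10 members, up to 4 genes past the threshold in each list (otherwise the highest and lowest pair with non-overlapping libraries), IRF7 and EXOSC4, the 5 rows most like DCP2, OARD1 and RACK1. LSM4 and LSM14A were named after their values were seen. Members and lists were chosen with earlier results of these data known. With 2 libraries a group, the SD of a mean is itself imprecise. The result of one item that the naming rule picked is not reported here.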

Additional observations from a re-analysis of the deposited data

Results flagged for a closer look

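Counts over the 5′ UTR are part of the exon counts and were compared on their own nowhere above. Over the 5′ UTR of DCP2, the siTARG1 libraries held 151 and 120 counts and the siControl libraries 37 and 30, which is a mean of 3.22 ± 0.491 CPM (SD, n = 2) against 0.964 ± 0.0465 (SD, n = 2). RACK1-WT was at 2.15 ± 0.378 and RACK1-Mut at 1.90 ± 0.0428 CPM (SD, n = 2). It is listed because both siTARG1 libraries lay above the higher control library by more than a set multiple of the control SD. Each also held at least 10 counts, the minimum set, in a region not compared on its own. These are the libraries that chose DCP2, and the difference was not tested.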

How the results depend on the processing

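With 3′ UTR counts alone, 1 of the 9 members was called between siTARG1 and siControl (4 with exon counts), 1 in the difference of the effects (3 with exon counts), and 17 of the other decay genes (30 with exon counts). The share of all rows called was not counted for the alternatives in this section. No fall in a count is therefore read as particular to these genes. Leaving out 1 library at a time gave 1 to 4 members between the siRNA groups and 1 to 3 in the difference of the effects, the latter falling to 1 without siControl replicate 1, siTARG1 replicate 1 or either RACK1-WT library. With 1 library left in a group, it is assumed to vary like the others. DESeq2 called 1 member in the difference of the effects. Between the RACK1 lines, 1 decay gene, IRF7, was called with these 4 libraries alone and 1, again IRF7, with a replicate block within each experiment, chosen after seeing the data. With the replicate number as a block, 4 of 9 members and 29 decay genes were called between the siRNA groups, 0 and 0 between the RACK1 lines and 3 in the difference, and the regions stayed at 0. The labels do not say that a number marks a shared culture. Same-numbered deviations correlated at 0.60 between siControl and siTARG1 and 0.06 between the RACK1 lines. The other 99 alternatives for these counts stayed within 1.5 times, and no called member changed direction. Of 360 alternatives for single members in the siRNA and RACK1 comparisons, 10 lost a call, all for DCP1A, LSM1 or DCPS. The difference of the effects is not among these 360. There LSM1 and DCPS lost their calls with DESeq2 and with 3′ UTR counts alone. LSM1 also lost it with coding-sequence counts and with another normalization.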
